A study of Rattus norvegicus with 4 samples.

Results

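The genes of the SLC4 family, which encode the bicarbonate (HCO3-) transporters, were followed through 4 RNA-seq libraries of the rat. The family was taken as every gene whose name starts with SLC4A in the study's supplementary lists of transcripts of the choroid plexus, the sorted epithelial cells and the proximal tubules, which gave 9 of the 32883 gene IDs quantified. These were SLC4A1, SLC4A2, SLC4A3, SLC4A4, SLC4A5, SLC4A7, SLC4A8, SLC4A10 and SLC4A11, and all 9 had values in every library. Those lists hold genes at or above 0.5 TPM, a transcript abundance per length scaled to a total of 1000000 in each library, in at least one of the male libraries, so that reaching this level there is how a gene came to be chosen and not a result.

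The study profiled the choroid plexus, the epithelium that secretes the cerebrospinal fluid (CSF), to find transport proteins that could take part in secretion, and set it beside sorted cells, the other sex and another fluid-transporting epithelium. All rats were Sprague Dawley animals of 9 weeks with no genetic change or treatment other than anaesthesia. One library held whole choroid plexus from the lateral and 4th ventricles of 5 males, and another the same tissue from 5 females. The others were male too. One held epithelial cells of the digested choroid plexus of 10 rats, labelled with an antibody against the cotransporter NKCC1 and collected by fluorescence-activated cell sorting (FACS). The other held kidney proximal tubules of 5 rats, picked by hand under a microscope after enzymatic digestion. The paper says that the kidneys came from the male rats, which reads as the same 5 males as the whole choroid plexus. Each library was 1 pool, so no difference between libraries has a replicate check, no spread between animals can be given and no p-value is printed.

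SLC4 proteins carry HCO3-, in most cases in exchange for Cl- or together with Na+. The anion exchangers AE1, AE2 and AE3 (SLC4A1, SLC4A2 and SLC4A3) swap Cl- for HCO3- without Na+. NBCe1 and NBCe2 (SLC4A4 and SLC4A5) move Na+ and HCO3- with net charge, whereas NBCn1, NDCBE and NCBE (SLC4A7, SLC4A8 and SLC4A10) take up HCO3- with Na+ and no net charge. SLC4A11 is the member that departs from this scheme and is known for the movement of H+ and water in the corneal endothelium. In the choroid plexus, AE2 and NCBE are placed in the basolateral membrane facing the blood and NBCe2 in the luminal membrane facing the CSF, where bicarbonate transport is tied to fluid secretion and to the pH of the CSF.

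The libraries held 23873318 to 28324976 expected counts, and the choroid plexus epithelial markers, 14 of 14, were at or above 0.5 TPM in the 3 choroid plexus libraries. The summed level of 4 immune markers (CD74, LYZ2, CSF1R, CX3CR1) came to 837 TPM in male tissue, 544 TPM in female tissue and 4585 TPM in the sorted epithelial cells. The proximal tubule library differed in kind. Mitochondrially encoded genes took 70.7% of its counts, against 4.32 to 5.34% elsewhere, of 1119 genes that reached 100 TPM in male choroid plexus it listed 311 at exactly 0, and besides 8 of 8 proximal tubule markers it held 5 of 5 markers of later nephron segments at or above 0.5 TPM.

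A trio of SLC4 genes made up nearly the whole family output of the choroid plexus. SLC4A2, SLC4A5 and SLC4A10 together held 98.8% of the summed SLC4 TPM of male choroid plexus, 99.0% of that of female choroid plexus and 99.2% of that of the sorted epithelial cells. The summed level of the 9 genes was 1867 TPM in the male choroid plexus, 1600.4 TPM in the female choroid plexus and 1072 TPM in the sorted cells, and 2.98 TPM in the proximal tubules. As a share of all counts this was 0.576% (95% Wilson interval 0.573 to 0.579%), 0.547% (0.544 to 0.550%), 0.431% (0.429 to 0.434%) and 0.00184% (0.00168 to 0.00202%) in the same order. Such intervals cover counting error only. These values keep the mitochondrially encoded genes. With those genes removed and the rest rescaled, the sums were 2037, 1708, 1143 and 10.7 TPM in the same order. Within the 263 plasma membrane transporters and pumps that the study lists, the SLC4 genes carried 11.4%, 10.8% and 8.41% of the TPM in the 3 choroid plexus libraries, and 0.0759% in the proximal tubules.

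**Figure D1:**
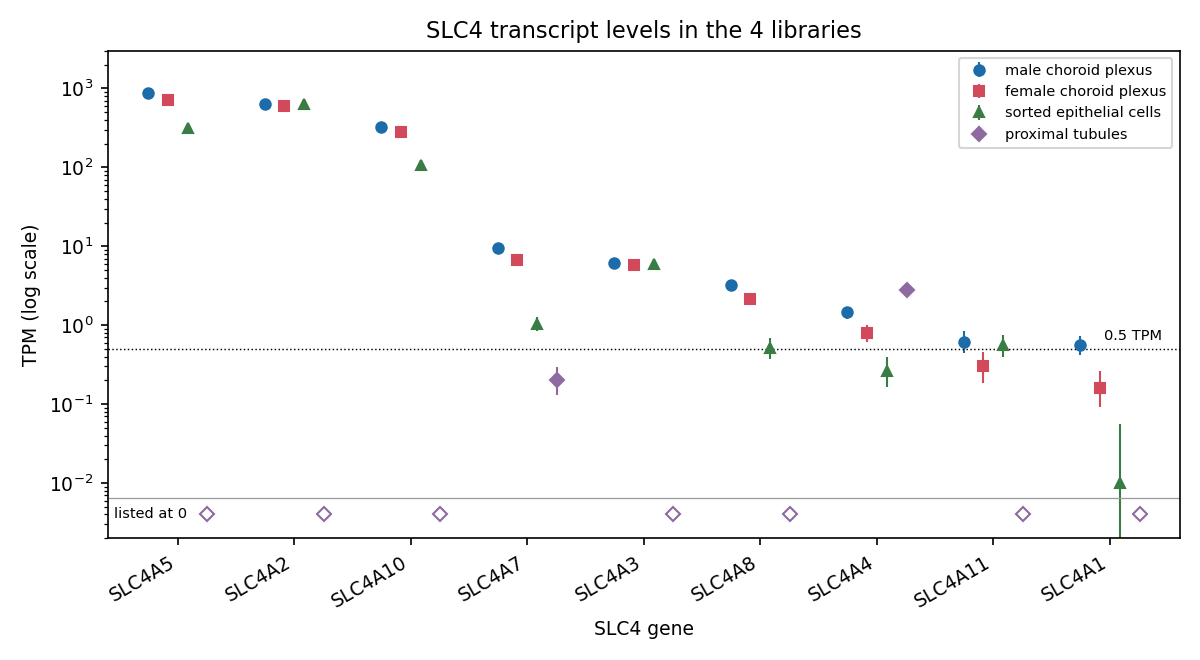
TPM of the 9 SLC4 genes on a log axis in the male and the female choroid plexus, the sorted epithelial cells and the proximal tubules (1 library each, genes ordered by the male level). Bars are 95% exact Poisson intervals of the counts, open symbols at the foot mark genes listed at 0, and the dotted line is 0.5 TPM. Mitochondrially encoded genes are kept. SLC4A5, SLC4A2 and SLC4A10 stand above 100 TPM in the choroid plexus libraries while the other 6 genes stay under 10 TPM, and 7 genes are listed at 0 in the proximal tubules.

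SLC4A5 (ENSRNOG00000010378), the electrogenic Na+-HCO3- cotransporter NBCe2, was the most abundant member in whole tissue. Its level was 881 TPM in the male choroid plexus, from 67051 expected counts, and 713 TPM in the female choroid plexus, from 53238 counts. It was 314 TPM in the sorted epithelial cells, from 25248 counts, and it was listed at 0 in the proximal tubules. This placed it at rank 90 among all genes in the male choroid plexus, at rank 124 in the female choroid plexus and at rank 265 in the sorted cells.

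SLC4A2 (ENSRNOG00000014347), the anion exchanger AE2, held nearly one level across the choroid plexus libraries. It was found at 638 TPM in the male choroid plexus (59154 counts), 592 TPM in the female choroid plexus (53883 counts) and 642 TPM in the sorted epithelial cells (62962 counts). The rank of SLC4A2 among all genes was 152 in the male, 169 in the female and 117 in the sorted library. In the proximal tubules it was listed at 0.

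SLC4A10 (ENSRNOG00000005307), the Na+-driven transporter NCBE, came next. Its level was 325 TPM in the male choroid plexus (35002 counts), 280 TPM in the female choroid plexus (30296 counts) and 108 TPM in the sorted epithelial cells (13927 counts), with ranks of 334, 376 and 777 among all genes. It too was listed at 0 in the proximal tubules. The order SLC4A5, SLC4A2, SLC4A10 therefore held in both whole tissues, where the counting intervals of neighbours did not touch. In the sorted cells SLC4A2 came before SLC4A5.

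Because these 3 genes carry the family output and did not change alike in the sorted cells, the 250 bases before their annotated start are printed here from the RefSeq promoters of the rat assembly GRCr8. The lines give Slc4a2 at chr4:11645403-11645652 on the minus strand, Slc4a5 at chr4:117283044-117283293 on the plus strand and Slc4a10 at chr3:67073653-67073902 on the plus strand, 5′ to 3′ along the gene. Capitals mark CCAAT or its reverse complement in Slc4a5 and the reverse complement of TATAAA in Slc4a10.
Slc4a2: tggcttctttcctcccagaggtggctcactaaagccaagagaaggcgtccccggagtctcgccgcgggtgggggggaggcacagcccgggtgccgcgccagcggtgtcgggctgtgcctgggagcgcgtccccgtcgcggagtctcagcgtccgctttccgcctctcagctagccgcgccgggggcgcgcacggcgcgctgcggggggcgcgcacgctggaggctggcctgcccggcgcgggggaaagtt
Slc4a5: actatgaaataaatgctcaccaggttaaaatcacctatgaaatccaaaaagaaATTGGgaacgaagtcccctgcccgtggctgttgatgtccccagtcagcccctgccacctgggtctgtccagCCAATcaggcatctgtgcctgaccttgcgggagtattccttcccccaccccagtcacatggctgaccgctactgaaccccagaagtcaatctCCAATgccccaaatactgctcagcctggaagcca
Slc4a10: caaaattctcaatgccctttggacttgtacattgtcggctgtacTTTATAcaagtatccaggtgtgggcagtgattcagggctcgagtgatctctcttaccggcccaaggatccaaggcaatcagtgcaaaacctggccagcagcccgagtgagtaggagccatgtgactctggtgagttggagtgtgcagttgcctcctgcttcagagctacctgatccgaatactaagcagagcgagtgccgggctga

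Slc4a2 differed from the other two in base composition. Its 250 bases were 74.4% G or C with 33 CG dinucleotides, more G or C than 96.1% of the 33469 rat promoters of this length. Slc4a5 had 52.8% and 4 CG dinucleotides, and Slc4a10 had 52.4% and 7, both close to the medians over all promoters of 51.2% and 5. The motifs searched on both strands were the CCAAT box (letters CCAAT), the TATA box (letters TATAAA), the GC box (letters GGGCGG) and the core bound by the choroid plexus factor OTX2 (letters TAATCC), and no match overlapped another in these windows. CCAAT, which 34.0% of all promoters hold, occurred 3 times before Slc4a5, with the leftmost base of the match 197 (minus strand), 126 and 34 bases before the start. TATAAA, held by 12.9% of promoters, occurred once before Slc4a10, on the minus strand with its leftmost base 206 bases before the start. GGGCGG and TAATCC, held by 30.5% and 6.34% of promoters, were not among the letters of any of the 3 windows. The annotated start used lies 1559 bases inside the RefSeq span of Slc4a2, 15491 bases inside that of Slc4a5 and 22978 bases inside that of Slc4a10, so that each gene has a transcript starting further upstream, and which start the choroid plexus uses was not tested. RefSeq promoters were matched for 6 of the 9 genes. The others were those of Slc4a4 (80.8% G or C, 42 CG dinucleotides), Slc4a3 (68.4%, 18) and Slc4a8 (66%, 15). All of these were richer in G or C than the median, yet SLC4A4 and SLC4A8 were lower in the sorted cells and SLC4A3 was not. A link between base composition and level was not tested.

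The other 6 genes together gave 21.6 TPM in the male choroid plexus, 15.8 TPM in the female choroid plexus and 8.29 TPM in the sorted epithelial cells. SLC4A7 (ENSRNOG00000005957), the electroneutral cotransporter NBCn1, led them in whole tissue with 9.56 TPM in males (831 counts) and 6.70 TPM in females (573 counts), and stood at 1.03 TPM in the sorted cells (95 counts). SLC4A3 (ENSRNOG00000020138), the anion exchanger AE3 of brain and heart, was found at 6.09, 5.73 and 5.92 TPM (651, 601 and 670 counts). SLC4A8 (ENSRNOG00000028879), the Na+-driven Cl-/HCO3- exchanger NDCBE, had 3.27, 2.15 and 0.51 TPM (267, 173 and 44 counts). SLC4A7 thus stood above SLC4A3 in both whole tissues and below it in the sorted cells, where SLC4A3 led the lesser members.

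The 3 remaining genes lay below 1.5 TPM in the choroid plexus libraries. SLC4A4 (ENSRNOG00000003134), NBCe1, which carries HCO3- out of the proximal tubule cell towards the blood, was at 1.45 TPM in the male choroid plexus (129 counts), 0.79 TPM in the female (69 counts) and 0.26 TPM in the sorted cells (22 counts). SLC4A11 (ENSRNOG00000021234) was at 0.62, 0.30 and 0.56 TPM (42, 20 and 40 counts). SLC4A1 (ENSRNOG00000020951), the anion exchanger of red blood cells, was at 0.56, 0.16 and 0.01 TPM (58, 16 and 1 counts). SLC4A11 and SLC4A1 could not be told apart in the male library, since the Poisson interval of SLC4A11, 0.447 to 0.838 TPM, overlapped that of SLC4A1, 0.425 to 0.724 TPM. In the female choroid plexus, which the rule did not use, 7 of the 9 genes reached 0.5 TPM, SLC4A1 and SLC4A11 being the exceptions. Of all 32883 gene IDs, 13401 reached this level in the female and 13598 in the male library.

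The comparison of sorted cells with whole tissue asks whether the transcripts of the tissue are those of its epithelial cells. SLC4A5 and SLC4A10 were about 3-fold lower in the sorted epithelial cells, SLC4A7 and SLC4A8 were lower by more, and SLC4A2 and SLC4A3 stood at the level of the whole tissue. SLC4A5 was 2.81-fold lower in TPM (95% counting interval 2.77 to 2.85) and SLC4A10 was 3.02-fold lower (2.96 to 3.08). SLC4A7 was 9.28-fold lower (7.50 to 11.6) and SLC4A8 6.41-fold lower (4.65 to 9.03). In bulk libraries, fewer cells of a type and less RNA per cell cannot be told apart.

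The ratio of SLC4A2 was 1.01 (0.994 to 1.02), that of SLC4A3 0.972 (0.871 to 1.08) and that of SLC4A11 0.903 (0.571 to 1.43), each with an interval that includes equality. SLC4A4 was 5.58-fold lower (3.53 to 9.21) on 22 counts. SLC4A1, with 1 count in the sorted cells, was 56-fold lower with an interval of 9.66 to 2250. The haemoglobin gene HBB, a red blood cell marker, stood at 1225, 678 and 275 TPM in the male, female and sorted libraries, lower where SLC4A1 was lower. Its part in the SLC4A1 values was not tested.

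Most genes were lower in the sorted library, so the SLC4 values were also set against all genes. On the scale of log2(TPM + 1), which understates the change of low genes, the median over the 14024 genes at or above 0.5 TPM in either library was -0.58, and the median of the 9 SLC4 genes was -0.96. Past a 2-fold difference on this scale, 4 of 9 SLC4 genes were lower (SLC4A5 by -1.49, SLC4A7 by -2.38, SLC4A8 by -1.50, SLC4A10 by -1.58) and 0 were higher, against 25.5% lower and 4.61% higher among all genes tested. Of all genes, 1.02% had a log2 ratio below that of SLC4A7, 6.01% below that of SLC4A10, 7.57% below that of SLC4A8 and 7.88% below that of SLC4A5. SLC4A2, at 0.01, was higher than 78.4% of genes. TPM is a share of a fixed total, and the transthyretin gene TTR alone took 238565 TPM in the male choroid plexus and 389655 TPM in the sorted cells. With the all-gene median set to 0, SLC4A5 stood at -0.90, SLC4A8 at -0.92 and SLC4A7 at -1.80, and 2 genes stayed past 2-fold, SLC4A7 and, just inside, SLC4A10. SLC4A2 then stood at 0.59 and SLC4A3 at 0.55, and over all scalings tried SLC4A2 ranged from -0.03, with mitochondrially encoded genes removed, to 0.66, when centred on genes of like length. SLC4A5 stayed lower under every scaling tried, between -0.84 and -1.52, and so did SLC4A10, between -0.94 and -1.62.

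**Figure D2:**
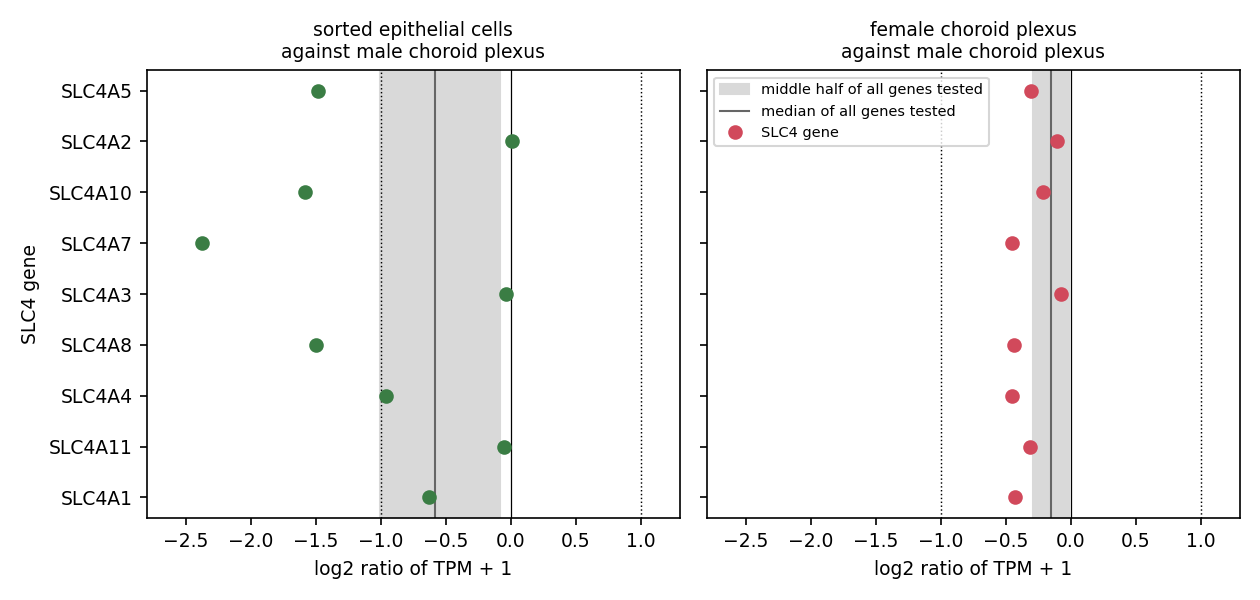
Log2 ratio of TPM + 1 for each SLC4 gene, sorted epithelial cells (left) and female choroid plexus (right) against the male choroid plexus, 1 library each. The grey band spans the middle 50% of all genes tested, the grey line is their median (-0.58 and -0.16) and the dotted lines are 2-fold. SLC4A5, SLC4A7, SLC4A8 and SLC4A10 lie left of the band in the sorted cells and SLC4A2, SLC4A3 and SLC4A11 right of it, and no gene passes 2-fold on this scale in the female tissue.

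Ratios between SLC4 genes within a library do not depend on how libraries are scaled to each other. SLC4A5 had 1.38 times the TPM of SLC4A2 in the male choroid plexus (95% counting interval 1.37 to 1.40) and 1.20 times in the female choroid plexus (1.19 to 1.22), but 0.489 times in the sorted epithelial cells (0.482 to 0.496). SLC4A10 had 0.510 (0.503 to 0.516), 0.472 (0.466 to 0.479) and 0.168 (0.165 to 0.171) times the TPM of SLC4A2. The ratio of cotransporter to anion exchanger was thus lower in the sorted than in the male library, by 2.82-fold for SLC4A5 and 3.03-fold for SLC4A10. Between the cotransporters the balance moved little, with 2.71, 2.55 and 2.91 TPM of SLC4A5 for each TPM of SLC4A10. TPM divides by the estimated length of the transcripts, which for SLC4A10 was 13.2% longer in the sorted cells, so that length enters its ratios. As shares of the SLC4 counts, without this division, SLC4A5 held 41.1, 38.3 and 24.5% and SLC4A10 held 21.4, 21.8 and 13.5%. Among the lesser members, SLC4A7 had 1.57 (1.42 to 1.74), 1.17 (1.04 to 1.31) and 0.174 (0.139 to 0.216) times the TPM of SLC4A3, and SLC4A8 had 0.537 (0.464 to 0.620), 0.375 (0.315 to 0.445) and 0.0861 (0.0620 to 0.117) times. The scarce anion exchanger SLC4A1 did not keep pace with SLC4A2 and SLC4A3, since it had 1 count in the sorted cells. As shares of the SLC4 transcripts, SLC4A5 held 47.2, 44.5 and 29.3%, SLC4A2 34.2, 37.0 and 59.9%, and SLC4A10 17.4, 17.5 and 10.1%.

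**Figure D3:**
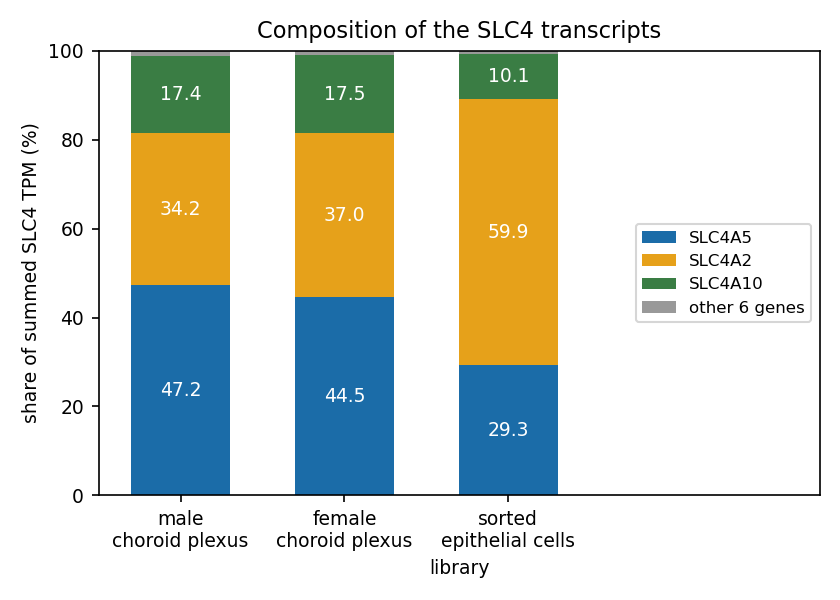
Share of the summed SLC4 TPM, in percent, held by SLC4A5, SLC4A2, SLC4A10 and the other 6 genes in 3 choroid plexus libraries (1 library each). SLC4A2 holds 34.2 and 37.0% in the whole tissues and 59.9% in the sorted epithelial cells, where SLC4A5 stands at 29.3%, against 47.2% in the male tissue.

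Markers of other cells moved unevenly with the sort. Of the 4 immune markers, 3 were more than 2-fold higher in the sorted cells, against 4.61% of all genes tested, and 0 were lower. The 6 endothelial and mural markers summed to 311 TPM in male tissue, 243 TPM in female tissue and 321 TPM in the sorted cells. The 3 mesenchymal markers summed to 205, 165 and 312 TPM. Both lists moved both ways between the male tissue and the sorted cells, with 4 of 6 and 2 of 3 genes higher. Set against the all-gene median of -0.58, the list medians stood 0.80 and 0.75 above it on the log2 scale. RGS5 (-0.46) and PDGFRA (-0.17) lay below that median. PLVAP went from 105 to 178 TPM and RGS5 from 140 to 67.5 TPM. DCN went from 102 to 239 TPM and PDGFRA from 83.4 to 49.25 TPM. No marker of these lists was listed at 0 in a choroid plexus library. Among the 14 epithelial markers, 4 were 2-fold lower in the sorted cells and 0 were higher, with a median log2 ratio of -0.62, near the 25.5% lower and the median of -0.58 of all genes. The part of the sort, the digestion and these cells in the SLC4 values was not tested.

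Genes that work with the bicarbonate transporters were read from lists of carbonic anhydrases, Na+/H+ exchangers, SLC26 anion exchangers, the Na+/K+-ATPase with NKCC1, and regulators. Of these 22 genes, 7 were 2-fold lower and 1 was 2-fold higher in the sorted epithelial cells, with a median log2 ratio of -0.38. Among all genes tested 25.5% were lower and 4.61% higher and the median was -0.58, so these counts lay near the background. The carbonic anhydrases, which make HCO3- and H+ from CO2 and water, held 3 of the 7. The cytosolic CAR2 stood at 1533 TPM in the male choroid plexus, 1455 TPM in the female and 405 TPM in the sorted cells. The membrane-bound CA12 went from 625 and 493 to 247 TPM, and cytosolic CA13 from 100 and 76.3 to 13.9 TPM. The membrane-bound CA14 stood apart, with 296, 279 and 320 TPM, a near-constant level like that of SLC4A2.

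The 3 genes of the Na+/K+-ATPase and NKCC1 list, whose proteins set or use the Na+ gradient, held 0 genes past 2-fold in the sorted cells. SLC12A2, which encodes the NKCC1 used for the sort, stood at 268, 237 and 150 TPM in the male, female and sorted libraries. Both regulators were 2-fold lower in the sorted cells. AHCYL1, which encodes IRBIT, a protein that activates some Na+-HCO3- cotransporters, had 193, 139 and 87.6 TPM. The kinase gene STK39 (SPAK) had 320, 282 and 122 TPM.

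**Figure D4:**
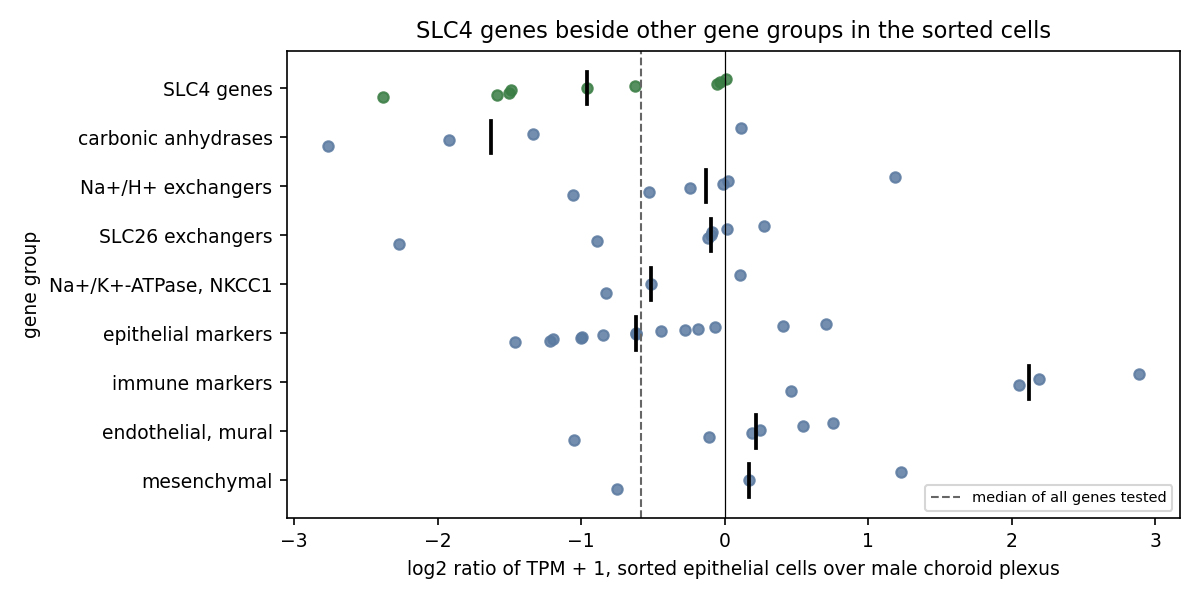
Log2 ratio of TPM + 1, sorted epithelial cells over male choroid plexus (1 library each), for the SLC4 genes and for gene lists of related transport and of cell types. Each point is a gene, black bars are list medians and the dashed line is the median of all genes tested, -0.58. The SLC4 genes run from -2.38 to 0.01 (median -0.96), the carbonic anhydrases have a median of -1.63 and the immune markers one of 2.12.

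Male and female choroid plexus were compared to see whether the sexes share their transporters. All 9 SLC4 genes had a lower TPM in the female library, as most genes did, the upper quartile of all log2 ratios being -0.014. The 3 leading genes differed by small amounts, and the scarce ones, SLC4A3 apart, by more. SLC4A5 in the female tissue was 0.809 times the male level (95% counting interval 0.800 to 0.818), SLC4A10 was 0.860 times (0.846 to 0.873) and SLC4A2 was 0.927 times (0.917 to 0.938). SLC4A7 was 0.701 times (0.629 to 0.780), while for SLC4A3, at 0.941 times, the interval of 0.841 to 1.05 included equality. The scarcest genes were farthest apart in TPM, SLC4A1 at 3.5-fold lower (1.98 to 6.52), SLC4A11 at 2.07-fold lower (1.19 to 3.72) and SLC4A4 at 1.84-fold lower (1.36 to 2.50), from 16, 20 and 69 female counts. On the log2(TPM + 1) scale, where the pseudocount holds such genes back, 0 of 9 SLC4 genes were 2-fold lower or higher, against 0.959% lower and 0.44% higher among the 13869 genes tested.

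Genes in general were also lower in the female library, with a median log2 ratio of -0.16 over all genes and of -0.32 over the SLC4 genes, 7 of which lay below the all-gene median. SLC4A7 (-0.46), SLC4A4 (-0.45), SLC4A8 (-0.44) and SLC4A1 (-0.43) were the farthest below, and SLC4A2 (-0.11) and SLC4A3 (-0.08) lay above it. The sign for SLC4A2 and SLC4A3 turned with the scaling, to 0.05 and 0.08 once the all-gene median was set to 0. The sorted and the female library were both set against the same male library, so their differences from it are not independent. With 1 pool per sex, sex, animals and library cannot be told apart.

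The proximal tubule, which reabsorbs HCO3- and fluid in the kidney, was the other fluid-transporting epithelium of the study. SLC4A4 led the SLC4 counts of this library, in which low counts were scarce: 2.65% of its detected genes had under 10 counts, against 10.3 to 15.8% in the choroid plexus libraries. SLC4A4 was at 2.78 TPM there, from 438 counts, and SLC4A7 at 0.20 TPM, from 25 counts, while the other 7 SLC4 genes were listed at 0. SLC4A4 made up 93.3% of the SLC4 TPM of the proximal tubules, against 0.0777% in the male choroid plexus, and ranked at place 29 among the listed transporters. For the comparison with the choroid plexus, mitochondrially encoded genes were removed from both libraries and the rest rescaled. SLC4A4 was then at 9.97 TPM in the proximal tubules and 1.58 TPM in the male choroid plexus, 6.30 times higher (95% counting interval 5.17 to 7.73), with a log2(TPM + 1) ratio of 2.09. With those genes kept, the ratio was 0.63 and did not pass 2-fold. SLC4A7 was 14.5-fold lower in the proximal tubules (9.78 to 22.6), in a comparison where the median log2 ratio of all genes was -2.27, and with that median set to 0 its log2 ratio of -2.74 became -0.46.

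No fold is given for the 7 genes listed at 0, since of 34 listed transporters that reached 100 TPM in male choroid plexus this library had 19 at 0 too. By the 2-fold rule, 6 of 9 SLC4 genes were lower, 5 of them genes listed at 0, and 1 was higher, against 71% lower and 12.1% higher among the 14227 genes tested. Of the 22 partner genes, 17 were 2-fold lower in the proximal tubules and 1 was higher. Without mitochondrially encoded genes CAR2 was at 1765 TPM in the proximal tubules and 1673 TPM in the male choroid plexus. The higher gene was SLC9A3, the luminal Na+/H+ exchanger NHE3, at 3.73 TPM against 0.0109 TPM, whereas CA14 and SLC26A6 were listed at 0. NBCe1 is also known outside the proximal tubule. The markers of later nephron segments summed to 122 TPM, against 11296 TPM for the proximal tubule markers. SLC7A13 (7371 TPM) and SLC3A1 (3125 TPM) made up most of the latter sum. SLC13A1 (385 TPM), SLC17A3 (149 TPM) and SLC5A12 (148 TPM) were lower. SLC34A1 (67.7 TPM), SLC22A6 (28.6 TPM) and SLC5A2 (21.6 TPM) lay below KCNJ1 of the later segments (89.3 TPM). The part of later segments in the level of SLC4A4 was not tested.

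The effective length, which is the mean length of a gene's transcripts weighted by their estimated abundance and shortened for the size of the fragments, gave a second readout. A gene whose mix of transcripts stays the same changes by the offset common to the library, -17.1 bases between the male and the sorted library. SLC4A10 did not follow it. Its effective length was 4389 bases in the male choroid plexus, 4496 bases in the female and 4953 bases in the sorted epithelial cells, which after the offset was 580 bases or 13.2% longer than in the male tissue. Of the 11725 genes compared, 3.49% were 10% or more longer in the sorted cells and 1.63% were 10% or more shorter, and 76.2% lay within 2 bases of the offset. SLC4A5 deviated by -1.4 bases. SLC4A2, SLC4A3 and SLC4A11 lay at the offset, but they did so in the proximal tubules too, where they were listed at 0. Their place at the offset therefore does not show that a mix of transcripts was kept. A gene without alternative annotated transcripts lies at the offset at any level, and such genes were not taken out of the shares above.

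RefSeq lists 13 transcripts for SLC4A10, the most of the 9 genes, 12 for SLC4A3, which lay at the offset, and 6 for SLC4A2 and for SLC4A5. The effective lengths rest on the Ensembl annotation, so these RefSeq numbers do not show which transcripts could be mixed. TPM divides by this length, so the longer value enters the lower SLC4A10 level. As counts scaled to the library total (CPM), with no division by length, SLC4A10 was at a log2 ratio of -1.08 in the sorted cells and SLC4A5 at -1.16. In the female library SLC4A10 was 110 bases or 2.51% longer than in the male. SLC4A4 was 560 bases or 15.4% longer in the proximal tubules than in the male choroid plexus, from 438 counts, and changed by -9.29% in the sorted cells, from 22 counts. Of the 4237 genes compared between the proximal tubules and the male tissue, 4.22% were 10% or more longer and 6.58% were 10% or more shorter. Which transcripts carry these shifts is not shown by gene-level values.

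**Figure D5:**
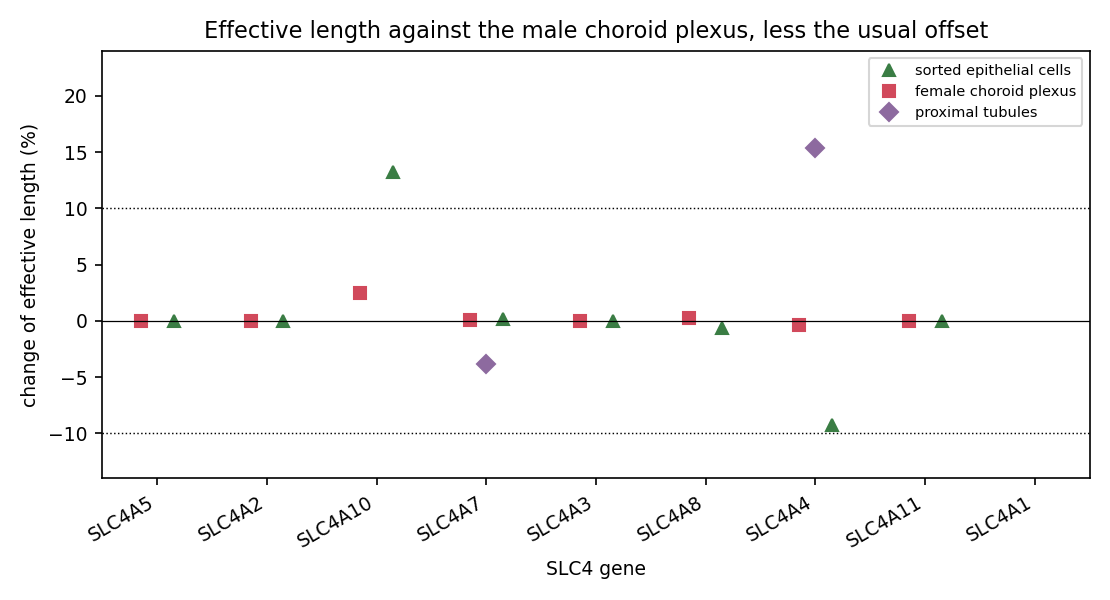
Change of effective length against the male choroid plexus, in percent after removal of the offset common to each library, for each SLC4 gene with 20 or more counts in the library shown (1 library each). The dotted lines are 10%. SLC4A10 in the sorted epithelial cells (13.2%) and SLC4A4 in the proximal tubules (15.4%) lie above the upper line, and most other points lie at 0. Of all genes compared, 3.49% were 10% or more longer in the sorted cells and 4.22% in the proximal tubules.

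The transporters whose profile over the 4 libraries was nearest to each leading SLC4 gene were found by the Euclidean distance of mean-centred log2(TPM + 1) values, among 135 listed transporters. For SLC4A2, SLC13A4 was nearest (distance 0.43), then FXYD1 (0.69) and SLCO1C1 (1.15), where the median distance was 4.83. Among the nearest to SLC4A5 were SLC13A4 (0.84) and ATP2B3 (1.02), and among the nearest to SLC4A10 were ATP2B3 (0.47) and ATP1B2 (0.70). All of these neighbours were listed at 0 in the proximal tubules, and that library sets much of the distance. SLC13A4, a sulphate transporter, had 627, 494 and 445 TPM in the male, female and sorted libraries, and ATP2B3, a plasma membrane Ca2+ pump, had 396, 287 and 163 TPM.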

How the data were processed

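Total RNA of the 4 pools was sequenced as paired 150 base reads with a NEB Next Ultra kit. The reads were mapped to Rnor_6.0, annotated by Ensembl release 103, by the authors in STAR 2.7.2a, and RSEM 1.3.3 gave the deposited expected counts (estimates that need not be whole), TPM and effective length (in bases, a score without a fixed range) per gene. Trimming was stated for the comparison between species alone, and strandedness and multi-mapping settings are not given in the sources used here, so reads of antisense or near-identical genes may be split. Gene names came from the study's supplementary lists (2452 of 32883 IDs). The genes and lists were chosen with earlier results of these data known. Genes named are all SLC4 members, fixed marker and partner lists, and the 3 nearest transporters of each leading member with a highest level of 10 TPM or more, and some genes that meet this rule are not reported here. In Python 3.11.15 (scipy 1.17.1, pandas 2.3.3, numpy 2.4.6), log2 ratios used a pseudocount of 1 TPM and genes at or above 0.5 TPM in either library. Effective lengths were compared for genes of 500 bases or more. Intervals (95%) were exact Poisson for TPM, Clopper-Pearson for ratios and Wilson for shares. In the main ratios the 13 mitochondrially encoded genes were removed only against the proximal tubules. They were also removed for the profile distances. The ratios and 2-fold calls of abundant genes and the intervals of ratios were tested on simulated counts. Effective lengths, profile distances and promoters were not. The deposited FPKM was not used. Figures were drawn with matplotlib 3.10.9. Alternatives were pseudocounts of 0.5 and 0.1 TPM, cut-offs of 0.1, 1 and 5 TPM or 10 counts, removal of the 10 highest genes, centring on the all-gene median, CPM, and the other treatment of mitochondrially encoded genes. Centring on the 3394 genes with effective lengths of 2500 to 4500 bases was added after seeing the data.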

Additional observations from a re-analysis of the deposited data

How the results depend on the processing

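No paired analysis was possible because each condition has 1 library. The summed SLC4 level in the sorted epithelial cells against the male choroid plexus (log2 ratio -0.80) was lower in every setting, at -0.40 without the 10 highest genes, -0.22 after centring on the all-gene median, -0.42 as CPM, -0.83 without mitochondrially encoded genes and -0.15 after centring on genes of like length. The number of members 2-fold lower there, 4, became 2 and 1 after the respective centrings, and 5 or 6 under the other settings (6 with pseudocounts of 0.5 and 0.1 TPM and as CPM). In the female choroid plexus the summed ratio of -0.22 became -0.13, -0.066, -0.0742, -0.25 and -0.0179 in the same order, and 1 member in place of 0 was 2-fold lower with a pseudocount of 0.1 TPM. In the proximal tubules the summed ratio of -7.45 became -8.03, -5.18, -6.57, -8.87 (mitochondrially encoded genes kept) and -4.87. The 3 leading genes, 98.8% of the male sum, were listed at 0 in the proximal tubules, so no fold is read from these sums. Members lower there went from 6 to 3 and members higher from 1 to 3 under either centring, members lower went to 8 with both smaller pseudocounts and as CPM and to 7 without the 10 highest genes, and 0 were higher with mitochondrially encoded genes kept. The centrings shift all genes alike, which takes the value of SLC4A8 there, -2.19 and set by the pseudocount since the gene is listed at 0, to 0.0791 and 0.39, and no direction is read from it. Members at 0.5 TPM went from 9 to 5 in the male choroid plexus and from 7 to 4 in the sorted cells at 5 TPM. In the proximal tubules the count of 1 became 2 at 0.1 TPM, 0 at 5 TPM and 2 at 10 counts. It was also 2 at 0.5 TPM with mitochondrially encoded genes removed. The centrings act by their own construction, and for the other settings the cause was not tested. Members under 1 TPM rest on 1 to 69 counts in the choroid plexus libraries, which limits their ratios.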

Other observations

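Other acid-base transporters of the lists varied among themselves. SLC9A9, an endosomal Na+/H+ exchanger, was 2-fold higher in the sorted epithelial cells, as 1 of 22 partners and 4.61% of all genes were, with 1.59 TPM in the male, 1.60 TPM in the female and 4.89 TPM in the sorted library. Immune markers were higher in that library as well, and their part was not tested.

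The SLC26 anion exchangers were each under 20 TPM, far below SLC4A2. SLC26A7 had 17.2, 13.0 and 8.83 TPM in the male, female and sorted libraries, and SLC26A2, a sulphate transporter, had 10.9 TPM in the male tissue and 1.47 TPM in the sorted cells. SLC26A6, which exchanges Cl- for HCO3- and oxalate, had 3.04, 2.99 and 3.89 TPM. Summed over 7 genes, this family gave 39.5 TPM in the male choroid plexus and 21.9 TPM in the sorted cells.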
